A study of Mus musculus with 6 samples.

Results

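The genes described here are 40 mitotic and spindle genes, which build, drive and check the division of a cell, in NIH3T3 cells, an immortalised line of mouse embryonic fibroblasts. They were chosen by name as textbook components of mitosis, and each of the 40 symbols matched 1 row of the 55401 genes listed in the deposited tables. Messenger RNA was sequenced in 3 libraries from cells given IPRN and in 3 libraries from cells given the solvent DMSO, all of wild-type genotype per the labels. According to the design text, the fibroblasts were stimulated with TGF-β and hydrogen peroxide before IPRN was added. It is not stated if cells in DMSO had the same stimulation, and neither dose nor time is given. IPRN is a code name that the labels leave unexplained. Angelicin, a furanocoumarin from plants, appears in the title of the series.

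Mitosis is driven by the kinase Cdk1 bound to A-type and B-type cyclins. The spindle checkpoint holds cells back until kinetochores are attached to the spindle, after which the anaphase-promoting complex has securin and cyclin B degraded, sister chromatids part and the cell divides. Transcripts of most of these genes accumulate late in the cell cycle under the transcription factors B-MYB, FOXM1 and NF-Y, so that their levels in a culture follow how many cells are dividing. In bulk RNA, fewer cells in division and less of a transcript in each dividing cell cannot be told apart.

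Most of the mitotic genes differed little between IPRN and DMSO. All 40 passed the filter on low counts. Of these, 0 were called higher and 2 were called lower under IPRN, namely Ccnb1, which encodes cyclin B1, and Top2a, which encodes topoisomerase II alpha. The other 38 did not pass (edgeR quasi-likelihood test, Benjamini-Hochberg adjusted p under 0.05 over 17159 genes). Among all genes tested 5.47% were called, 2.46% as higher and 3.01% as lower under IPRN, so 2 of 40 members lay near the background. The median log2 fold change of IPRN over DMSO was -0.025 over the members and 0.0016 over all genes tested, and the members ran from -0.40 for Ccnb1 to 0.32 for Ube2c. The 95% interval of the fold change lay within 1.5-fold in either direction for 39 of the 40 members. The exception was Ccnb1, and 40 of 40 intervals lay within 2-fold.

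**Figure D1:**
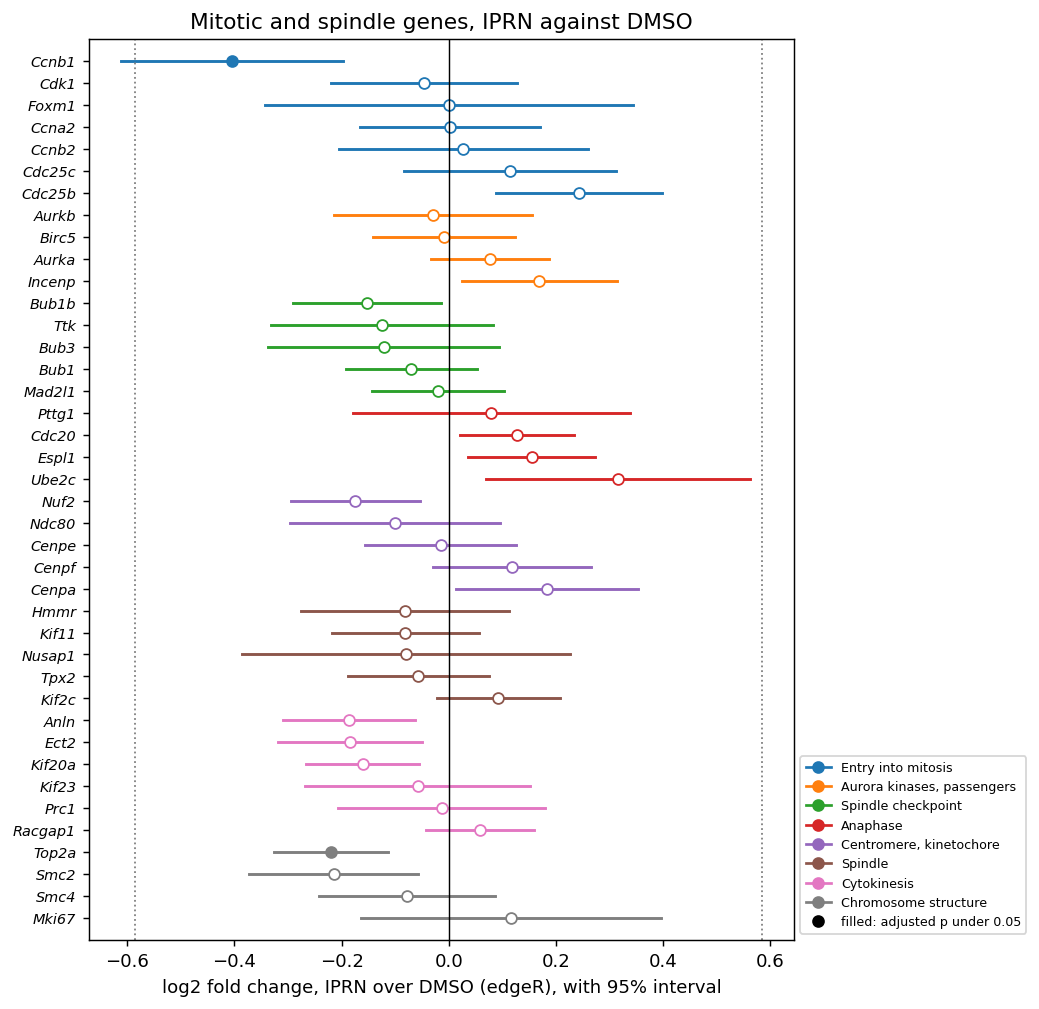
Log2 fold change of IPRN over DMSO (horizontal axis) for each of the 40 genes (rows, coloured by role), with bars for the 95% interval from edgeR, filled points for an adjusted p under 0.05 and dotted lines at 1.5-fold. Ccnb1 and Top2a carry the only filled points, and the bar of Ccnb1 alone crosses a dotted line.

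At an unadjusted p under 0.05, 14 members differed, 6 of them higher and 8 lower under IPRN. That is 35.0% of the members, against 22.0% of all genes tested. The CPM values (a gene's count relative to the library total, TMM-normalised) of the groups did not overlap for 17 members (42.5%), against 29.6% of all genes tested. These members lay on both sides of 0, with 9 higher and 8 lower. DESeq2, a second count test, called 8 members (20.0%, against 13.5% of all genes tested): Cdc25b and Ube2c higher, and Anln, Ccnb1, Kif20a, Nuf2, Smc2 and Top2a lower.

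Total counts per library ran from 60320282 to 78629444, and 20228 to 21941 genes had at least 1 count. The fibroblast markers summed to between 25658 and 30601 CPM, led by Col1a1 with a mean of 6539 CPM, while Fap, the lowest, was at 0 in 5 libraries and had 4 counts in IPRN 3. Libraries differed in RNA of other cell types. DMSO 1 and IPRN 3 had 0 counts for 13 and 14 of 22 hepatocyte markers, against none at 0 in the other 4 libraries. IPRN 3 also held 97.9 CPM of Lyz2, a macrophage marker, against 0.766 to 7.21 CPM in the other 5 libraries, and its 8 leukocyte markers summed to 132.8 CPM, against 3.25 to 15.4 CPM. Cd3e, of T cells, was at 0 in all 6. Epithelial markers summed to at most 2.66 CPM and endothelial markers to at most 3.40 CPM. With DMSO 1 and IPRN 3 left out, 0 of the 40 members were called in edgeR, with log2 fold changes of -0.39 for Ccnb1 (adjusted p = 0.255) and -0.23 for Top2a (adjusted p = 0.268), and 53 of 17638 genes were called in all.

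Per length of transcript, the members spanned a wide range of levels. By the deposited FPKM values, Cdc20, the activator of the anaphase-promoting complex, stood highest at 105.0 ± 3.66 FPKM under IPRN and 95.9 ± 1.51 FPKM in DMSO (SD, n = 3 each). Ube2c followed under IPRN with 54.8 ± 7.47 FPKM, against 44.0 ± 1.09 FPKM in DMSO, and Top2a had 46.2 ± 0.846 FPKM against 53.7 ± 1.83 FPKM. The lowest was Cdc25c, a phosphatase that activates Cdk1, with 4.12 ± 0.173 FPKM under IPRN and 3.80 ± 0.186 FPKM in DMSO. Together the 40 genes took between 0.490% and 0.499% of all counts under IPRN, and between 0.496% and 0.511% in DMSO, ranges that overlap.

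Of the 7 genes for entry into mitosis, 2 had groups without overlap (28.6%, against 29.6% of all genes tested). Of the same 7, 1 was called (14.3%, against 5.47% of all genes tested). Ccnb1 (chr13:100778650-100786570, minus strand, GRCm38) measured 87.6, 102.2 and 101.5 CPM in IPRN 1, 2 and 3, against 136.9, 132.6 and 116.3 CPM in DMSO 1, 2 and 3. Every IPRN library lay below every DMSO library, with DMSO 3 the lowest of its group. The log2 fold change was -0.40 ± 0.087 (SE), a level 1.32-fold lower under IPRN (edgeR quasi-likelihood test, adjusted p = 0.0468). This call was lost whichever of the 6 libraries was left out (adjusted p from 0.0652 to 0.170), while the log2 fold change stayed between -0.47 and -0.33. It was also lost when libraries were scaled by their totals alone (adjusted p = 0.0579), with no filter on low counts (0.0634) and with a term for the libraries that held hepatocyte transcripts (0.0669). The pseudogene copy Ccnb1-ps held 1.85, 2.36 and 3.18 CPM under IPRN and 5.06, 2.76 and 3.40 CPM in DMSO, and how the authors' counting divided shared reads is not given in the sources used here. With both rows added, the means were 99.6 ± 8.79 CPM under IPRN and 132.3 ± 11.4 CPM in DMSO, a ratio of 0.752, against 0.755 for the fitted fold of Ccnb1 alone.

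Ccnb2, which encodes the other B-type cyclin of dividing somatic cells, was not called. It measured 24.4, 20.9 and 20.7 CPM under IPRN, against 22.7, 21.9 and 20.1 CPM in DMSO, and the groups overlapped (log2 fold change 0.027, 95% interval from -0.21 to 0.26). The ratio of Ccnb1 to Ccnb2, in FPKM within each library, was 1.30, 1.78 and 1.78 under IPRN, against 2.188, 2.198 and 2.098 in DMSO. The groups did not overlap in this ratio, and a two-sided exact permutation test gave p = 0.1, the smallest that 3 libraries against 3 allow (0.55 adjusted over 11 ratios of partner genes). Ccna2, encoding cyclin A2, averaged 199.1 ± 18.6 CPM under IPRN and 198.9 ± 3.15 CPM in DMSO, and Cdk1 itself 178.9 ± 7.12 and 184.7 ± 17.1 CPM in the same order. Neither passed, with 95% intervals from -0.17 to 0.17 and from -0.22 to 0.13 on the log2 scale.

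Promoter windows are shown for the called members, Ccnb1 and Top2a, and for Ccnb2, the B-type cyclin gene that was not called. The sequences are RefSeq's, on GRCm38.p6, from 250 bases before the annotated start to 50 after it, written 5′ to 3′ on the gene's own strand. The windows are chr13:100786437-100786736 for Ccnb1, chr9:70421505-70421804 for Ccnb2 and chr11:99024140-99024439 for Top2a, all on the minus strand. Capitals mark CCAAT, the letters bound by NF-Y, and TTTGAA, a form of the cell cycle genes homology region (CHR) bound by the MuvB complexes, on either strand.
Ccnb1: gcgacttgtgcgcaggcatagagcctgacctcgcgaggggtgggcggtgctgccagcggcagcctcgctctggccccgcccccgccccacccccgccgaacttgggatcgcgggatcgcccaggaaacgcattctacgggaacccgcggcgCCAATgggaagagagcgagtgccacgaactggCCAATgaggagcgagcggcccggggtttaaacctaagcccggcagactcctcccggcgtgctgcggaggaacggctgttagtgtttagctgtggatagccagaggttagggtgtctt
Ccnb2: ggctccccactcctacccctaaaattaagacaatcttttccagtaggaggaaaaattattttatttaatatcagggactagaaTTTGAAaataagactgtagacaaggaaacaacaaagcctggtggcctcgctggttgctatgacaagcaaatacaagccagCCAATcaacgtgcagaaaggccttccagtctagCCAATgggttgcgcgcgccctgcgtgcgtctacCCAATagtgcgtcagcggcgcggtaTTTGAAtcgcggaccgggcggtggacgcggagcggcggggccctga
Top2a: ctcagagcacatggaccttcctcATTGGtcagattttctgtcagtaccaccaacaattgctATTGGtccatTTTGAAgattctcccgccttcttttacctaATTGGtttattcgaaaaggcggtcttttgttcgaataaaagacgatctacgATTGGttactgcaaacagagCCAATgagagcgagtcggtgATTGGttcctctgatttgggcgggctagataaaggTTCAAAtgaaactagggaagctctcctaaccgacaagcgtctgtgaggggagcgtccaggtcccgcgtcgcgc
The window of Ccnb1 held 2 CCAAT and no TTTGAA, that of Ccnb2 3 CCAAT and 2 TTTGAA, and that of Top2a 6 CCAAT and 2 TTTGAA. Windows were given for 32 of the 40 members, 35 in all. Of those 35, 26 (74.3%) held TTTGAA, against 17.9% of 32851 windows of all genes, 27 (77.1%) held CCAAT, against 37.4%, and 23 (65.7%) held both, against 6.95%. By gene, 23 of the 32 had TTTGAA, 24 had CCAAT and 20 had both, in at least 1 window. The 2 motifs shared letters in 0 of the 35 windows and in 47 of all 32851. A match describes the letters only, and a link between these motifs and the fold changes was not tested. Other forms of the CHR were not searched, so a window without TTTGAA, such as that of Ccnb1, may hold one.

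Among the other genes for entry, Cdc25b, a phosphatase that starts Cdk1 activation, measured 61.4, 64.6 and 64.9 CPM under IPRN, against 55.8, 49.9 and 55.7 CPM in DMSO. All 3 IPRN libraries lay above the DMSO libraries, but edgeR did not call the difference (log2 fold change 0.24 ± 0.065, adjusted p = 0.0833), and DESeq2 did (adjusted p = 0.0197). Foxm1, which encodes a transcription factor that activates late cell cycle genes, measured 100.9, 153.0 and 144.2 CPM under IPRN, against 133.1, 133.4 and 131.6 CPM in DMSO. IPRN 1 lay below and IPRN 2 and 3 above the DMSO libraries, which left the fitted log2 fold change at -0.00017 with a 95% interval from -0.34 to 0.34. Without IPRN 1 it was 0.16 (adjusted p = 0.0803). Cdc25c measured 22.6 ± 1.32 CPM under IPRN and 20.8 ± 1.05 CPM in DMSO, and did not pass.

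Of the 4 genes for chromosome structure, 1 was called (25.0%, against 5.47% of all genes tested). Groups did not overlap for 2 of the 4, against 29.6% of all genes tested. Top2a (chr11:98992943-99024189, minus strand, GRCm38), whose enzyme untangles sister DNA before they part, measured 469.6, 452.8 and 465.1 CPM under IPRN, against 535.5, 557.1 and 523.4 CPM in DMSO. The groups were well apart and tight within each, and the log2 fold change was -0.22 ± 0.045, or 1.16-fold lower (edgeR adjusted p = 0.0407). The call was kept without IPRN 1 (adjusted p = 0.0306) and lost when IPRN 2, IPRN 3 or any DMSO library was left out (0.0995 to 0.167), with log2 fold changes from -0.24 to -0.19. It was also lost with no filter on low counts (adjusted p = 0.0702) and with the term for hepatocyte transcripts (0.0860). Smc2 and Smc4 encode the paired core subunits of condensin. Smc2 measured 107.0, 112.2 and 112.2 CPM under IPRN and 123.8, 139.9 and 121.1 CPM in DMSO, without overlap, and was not called (log2 fold change -0.21, adjusted p = 0.116). Smc4 averaged 199.3 ± 15.7 CPM under IPRN and 210.5 ± 9.32 CPM in DMSO, with overlapping libraries. Mki67, which encodes the proliferation marker Ki-67 that coats mitotic chromosomes, measured 409.6, 293.7 and 319.1 CPM under IPRN against 318.0, 320.2 and 305.4 CPM in DMSO. IPRN 1 alone stood high, and the difference did not pass (adjusted p = 0.651). Without IPRN 1 its log2 fold change was -0.037, against 0.12 with all 6 libraries.

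**Figure D2:**
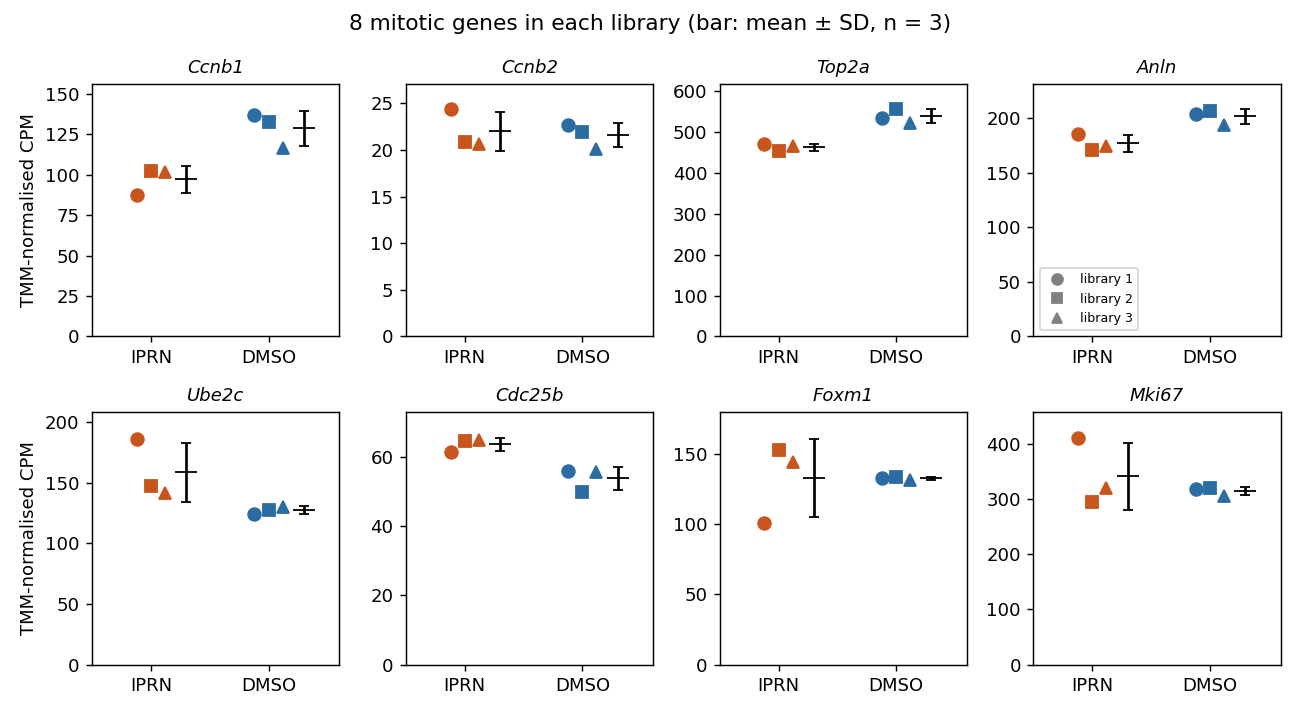
TMM-normalised CPM (vertical axes, from 0) of 8 of the mitotic genes in each IPRN and DMSO library, with the mean and SD of 3 libraries beside the points and marker shapes for library numbers. Every IPRN point of Ccnb1, Top2a and Anln lies below the DMSO points, every IPRN point of Ube2c and Cdc25b lies above them, and IPRN 1 stands apart for Foxm1 and Mki67.

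The 4 genes of anaphase all had log2 fold changes above 0 (median 0.14), as had 8611 of the 17159 genes tested. Of the 4, edgeR called 0. Ube2c, the ubiquitin-conjugating enzyme of the anaphase-promoting complex, measured 186.4, 147.6 and 141.5 CPM under IPRN, against 123.9, 127.7 and 130.4 CPM in DMSO. The groups did not overlap, IPRN 1 was the highest, and the log2 fold change of 0.32 ± 0.10 did not pass (adjusted p = 0.132, and 0.0341 in DESeq2). Cdc20 measured 217.3, 225.5 and 210.4 CPM under IPRN, against 203.0, 197.6 and 197.6 CPM in DMSO (log2 fold change 0.13, adjusted p = 0.156). Espl1, which encodes separase, the protease that cuts cohesin, measured 78.6, 77.6 and 76.1 CPM under IPRN, against 68.7, 68.0 and 72.1 CPM in DMSO (log2 fold change 0.15, adjusted p = 0.127). Both genes had groups that did not overlap, which held for 3 of the 4 anaphase genes (75.0%) and for 29.6% of all genes tested. Pttg1, which encodes securin, the inhibitor of separase, measured 54.5, 43.8 and 41.8 CPM under IPRN and 46.6, 41.9 and 44.2 CPM in DMSO, and its sign turned without IPRN 1 (-0.045, against 0.080 with all 6 libraries). At an unadjusted p under 0.05, 3 of these 4 genes were higher under IPRN, as were 1922 of the 17159 genes tested.

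The 5 spindle checkpoint genes all had log2 fold changes below 0 (median -0.12), as had 8548 of the 17159 genes tested. Again, edgeR called 0 of the 5. Bub1b, which encodes the checkpoint protein BubR1, was the single member of this group whose libraries did not overlap (20.0%, against 29.6% of all genes tested). It measured 108.3, 120.0 and 121.4 CPM under IPRN against 128.0, 127.6 and 133.1 CPM in DMSO (log2 fold change -0.15, adjusted p = 0.187). Bub3, the WD-repeat partner of Bub1 and BubR1, measured 124.9, 161.2 and 149.6 CPM under IPRN and 158.9, 158.7 and 156.4 CPM in DMSO, so that IPRN 1 was low and IPRN 2 lay above all DMSO libraries. The kinase genes Bub1 and Ttk, and Mad2l1, whose product Mad2 holds Cdc20 inactive, did not pass either (adjusted p from 0.481 to 0.882). Mad2l1 averaged 129.9 ± 4.30 CPM under IPRN and 131.7 ± 5.41 CPM in DMSO, and its sign turned without DMSO 2 (0.0055) or IPRN 3 (0.0028).

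Among the 5 centromere and kinetochore genes the signs were mixed, and none passed in edgeR, while 2 reached an unadjusted p under 0.05, against 22.0% of all genes tested. Nuf2, a subunit of the microtubule-binding Ndc80 complex, measured 93.9, 96.9 and 89.1 CPM under IPRN, against 107.2, 105.7 and 103.0 CPM in DMSO. Those groups did not overlap (log2 fold change -0.17, adjusted p = 0.101, and 0.0383 in DESeq2). Its partner Ndc80 measured 43.5, 37.9 and 36.2 CPM under IPRN and 41.2, 43.2 and 41.7 CPM in DMSO, with IPRN 1 above all the DMSO libraries. Cenpa, the histone H3 variant that marks centromeres, measured 112.2, 117.0 and 116.0 CPM under IPRN, against 108.9, 103.8 and 91.4 CPM in DMSO, without overlap and not called (log2 fold change 0.18, adjusted p = 0.193). Cenpe, a kinesin that moves chromosomes to the spindle equator, and Cenpf, a large kinetochore protein, did not pass (adjusted p = 0.927 and 0.333). Groups did not overlap for 2 of the 5 genes, against 29.6% of all genes tested.

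Of the Aurora kinase and chromosomal passenger genes, 0 of 4 were called. Aurka, the kinase of spindle poles, averaged 91.7 ± 1.31 CPM under IPRN and 86.9 ± 2.22 CPM in DMSO. Aurkb, the kinase of the passenger complex, averaged 50.2 ± 3.28 CPM under IPRN and 51.3 ± 3.46 CPM in DMSO, and Birc5, its partner survivin, 112.3 ± 6.59 and 113.0 ± 1.34 CPM in the same order. Incenp, the scaffold of the same complex, measured 155.9, 136.7 and 139.8 CPM under IPRN, against 131.0, 126.9 and 126.6 CPM in DMSO. Its groups did not overlap, as those of Aurka did not, and it was not called (log2 fold change 0.17, adjusted p = 0.162). Non-overlap thus held for 2 of the 4 genes, and for 29.6% of all genes tested. The ratio of Aurkb to Birc5 in FPKM was 0.516 ± 0.00623 under IPRN and 0.523 ± 0.0300 in DMSO.

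The 5 spindle genes gave 0 calls and 0 genes at an unadjusted p under 0.05. Groups did not overlap for 1 of the 5 (20.0%), against 29.6% of all genes tested. Kif11, the motor that pushes spindle poles apart, averaged 108.6 ± 5.06 CPM under IPRN and 114.9 ± 5.21 CPM in DMSO, and Tpx2, the activator of Aurora A, 153.7 ± 8.76 and 159.9 ± 4.25 CPM in the same order. Nusap1, a microtubule-bundling protein, measured 54.6, 39.6 and 40.3 CPM under IPRN, against 47.7, 45.5 and 49.1 CPM in DMSO. IPRN 1 was above and the other IPRN libraries below all DMSO libraries. Hmmr, a spindle assembly protein that also binds hyaluronan, showed that same order, with 95.5, 79.9 and 78.2 CPM under IPRN against 88.5, 89.9 and 90.1 CPM in DMSO. Kif2c, which takes microtubules apart at their ends, measured 103.8, 99.2 and 97.1 CPM under IPRN and 94.8, 95.1 and 91.7 CPM in DMSO, without overlap.

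Cytokinesis, the separation of the daughter cells, was represented by 6 genes, of which 0 were called and 3 had an unadjusted p under 0.05. Those 3 were lower under IPRN, as were 1847 of the 17159 genes tested at the same threshold. Anln, which encodes anillin, the scaffold of the contractile ring, measured 185.8, 170.8 and 174.4 CPM under IPRN, against 203.9, 206.9 and 193.4 CPM in DMSO (log2 fold change -0.19 ± 0.052, adjusted p = 0.0916). It was called without IPRN 1 (adjusted p = 0.0441), where 1047 of 17861 genes (5.86%) and 2 of the 40 members were called, the other being Top2a. Ect2, the exchange factor that activates RhoA at the division plane, measured 70.6, 74.4 and 71.3 CPM under IPRN, against 86.5, 80.4 and 78.9 CPM in DMSO (log2 fold change -0.18, adjusted p = 0.115). Kif20a, a kinesin of the central spindle, measured 128.2, 124.4 and 127.4 CPM under IPRN, against 146.1, 140.0 and 138.8 CPM in DMSO (log2 fold change -0.16, adjusted p = 0.0901). In all of these 3 genes the groups did not overlap, which held for 4 of the 6 (66.7%) and for 29.6% of all genes tested. Racgap1, a subunit of centralspindlin, did not overlap in the other direction, with 155.2, 151.0 and 158.4 CPM under IPRN against 150.5, 148.1 and 147.5 CPM in DMSO (adjusted p = 0.500). Its partner Kif23 and Prc1, which bundles the midzone microtubules, overlapped between groups and did not pass (adjusted p = 0.781 and 0.956).

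**Figure D3:**
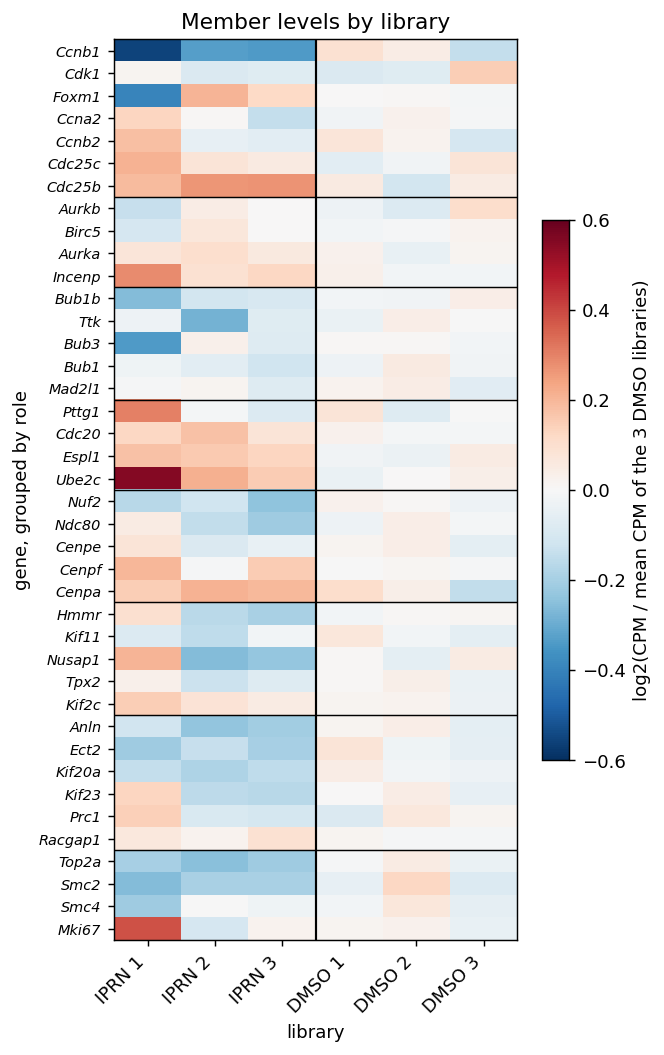
Level of each gene (rows, grouped by role in the order of the plot of fold changes) in each library (columns), as log2 of its CPM over the mean CPM of the 3 DMSO libraries, on a colour scale from -0.6 to 0.6. Ccnb1 is blue and Ube2c red in all 3 IPRN libraries, and IPRN 1 differs in sign from IPRN 2 and 3 for genes such as Foxm1 and Nusap1.

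The IPRN libraries differed more among themselves than the DMSO libraries did. The SD of log2 CPM was larger in IPRN than in DMSO for 29 of the 40 members and for 9519 of 15878 tested genes with counts in every library. The medians over the members were 0.086 under IPRN and 0.045 in DMSO, and over those 15878 genes 0.16 and 0.12 in the same order. IPRN 1 was the highest of its group for 23 members and the lowest for 11, so that it was at an extreme for 85.0% of the members, against 74.8% of all genes tested. Foxm1 was lowest there relative to the other IPRN libraries, at 0.679 of the mean of IPRN 2 and 3, and Nusap1 highest, at 1.37 times that mean. Mki67 followed at 1.34, Ube2c at 1.29 and Pttg1 at 1.27. IPRN 1 also held the most RNA of hepatocyte markers, 149.1 CPM over 22 genes, against 23.4 to 113.5 CPM in the other 5 libraries. Of these markers, Hp followed the groups, with 14.9 to 16.0 CPM under IPRN and 39.4 to 41.2 CPM in DMSO. It made up most of the sums of IPRN 3 (23.4 CPM) and DMSO 1 (45.4 CPM). The part of hepatocyte RNA in the values of IPRN 1 was not tested.

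Values of 10 members are less certain because their exons overlap those of another gene model in GENCODE release M21. These are Ccna2, Cdc20, Cdc25b, Cdc25c, Foxm1, Kif20a, Nusap1, Prc1, Top2a and Ube2c. The overlapping models lie on the same strand for Foxm1 and Top2a and on the opposite strand for the rest. For the opposite-strand overlaps, the library protocol names no step that marks strand. For Top2a the other model is a small nucleolar RNA gene. In the deposited annotation, 30 of the 40 members carried the Gene Ontology term for cell cycle, 29 that for cell division, 17 that for spindle and 13 that for kinetochore, and 14 were placed in the KEGG cell cycle pathway. Among all 55401 listed genes those terms were attached to 588, 363, 191, 127 and 123.

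Of a wider list of 79 other mitotic genes, 1 gene was called higher, 3 were called lower and 75 did not pass (5.06% called, median log2 fold change -0.037). Plk1, the polo-like kinase that promotes mitotic entry, rose 1.30-fold to 105.5 ± 3.72 CPM under IPRN, against 81.3 ± 2.54 CPM in DMSO (adjusted p = 0.0143, and 0.0161 to 0.0773 with 1 library left out). Hmgb2, a chromatin protein, fell to 140.9 ± 0.684 CPM, against 171.3 ± 8.32 CPM in DMSO (adjusted p = 0.0283), Melk, a mitotic kinase gene, to 37.4 ± 1.05 against 46.1 ± 0.881 CPM (0.0353), and Kif4, a chromosome-bound kinesin, to 60.5 ± 1.89 against 71.9 ± 2.37 CPM (0.0478). With 1 library left out, Plk1 was called in 2 of 6 fits and Hmgb2, Melk and Kif4 in 1 each.

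The 50 genes of DNA replication, which act earlier in the cycle, are given for comparison. Of these, 4 were called lower, 0 higher and 46 did not pass, where 3.01% of all genes tested were called lower and 2.46% higher. Of the replication genes, 41 of 50 had a log2 fold change below 0, against 25 of the 40 mitotic genes and 49.8% of all genes tested. Their median was -0.067. Rrm1, a subunit of ribonucleotide reductase, fell to 331.4 ± 2.58 CPM under IPRN, against 411.3 ± 2.60 CPM in DMSO (adjusted p = 0.0110). Pola1, Mcm6 and Orc2, which encode a polymerase alpha subunit, a helicase subunit and an origin recognition subunit, were also called lower (adjusted p = 0.0291, 0.0293 and 0.0341). Each of those 3 was called in 1 of the 6 fits with a library left out, and Rrm1 in 2. Whether the mitotic and the replication genes differ from each other was not tested.

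Known regulators of the mitotic genes gave 0 calls in edgeR among 28 tested of 31 listed, against 5.47% of all genes tested. An unadjusted p under 0.05 was reached by 3 of the 28, against 22.0% of all genes tested. DESeq2 called 2 of the 28 (7.14%, against 13.5% of all genes tested). The list of regulators holds E2F, retinoblastoma, MuvB, B-MYB, NF-Y and CDK inhibitor genes with Fzr1 and Trp53. The genes called by DESeq2, named after their values were seen, were Fzr1, which encodes the anaphase-promoting complex activator Cdh1, and Lin9, a MuvB subunit. Fzr1 averaged 75.9 ± 2.40 CPM under IPRN and 63.4 ± 5.43 CPM in DMSO (DESeq2 adjusted p = 0.0251, edgeR 0.0934), and Lin9 24.1 ± 1.13 CPM under IPRN and 30.0 ± 2.26 CPM in DMSO (0.0137 and 0.0823). In both genes the groups did not overlap, as in 21.4% of the regulators tested and 29.6% of all genes tested. Cdkn1a, which encodes the CDK inhibitor p21, averaged 198.0 ± 8.37 CPM under IPRN and 207.5 ± 2.92 CPM in DMSO (adjusted p = 0.488). E2f1, an activator of the G1 to S transition, averaged 73.7 ± 10.9 and 67.3 ± 10.5 CPM in the same order, and Mybl2, which encodes B-MYB, 55.6 ± 1.69 and 55.7 ± 1.29 CPM. E2f1 and Mybl2 did not pass (adjusted p = 0.686 and 0.988).

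**Figure D4:**
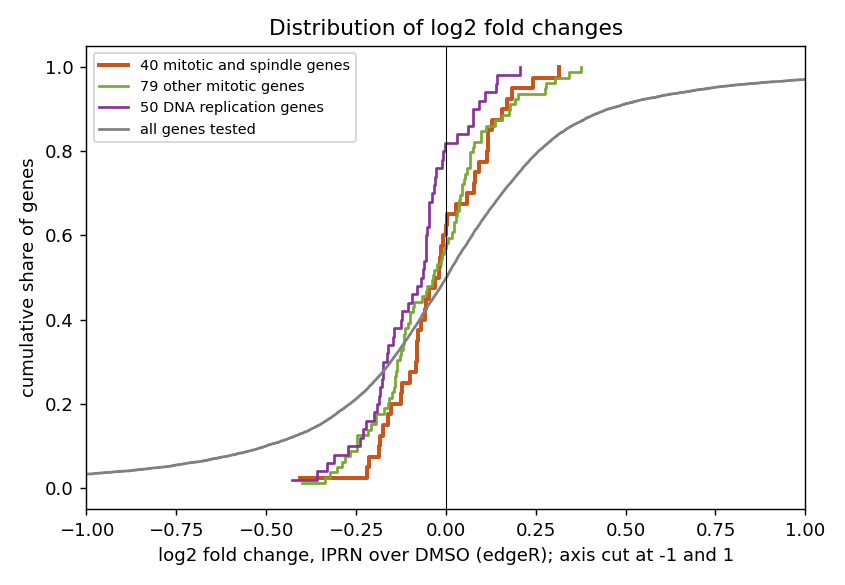
Cumulative share of genes (vertical axis) by log2 fold change of IPRN over DMSO (horizontal axis, shown from -1 to 1) for the 40 mitotic and spindle genes, 79 other mitotic genes, 50 DNA replication genes and all genes tested. The mitotic curve crosses the middle at -0.025 and is steeper than that of all genes, whose median SE of 0.14 is larger than the 0.066 of the mitotic genes.

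The spread of fold changes was narrower among the mitotic genes than over the whole table, as the plot of cumulative shares shows. The 5th to 95th percentiles ran from -0.22 to 0.19 for the 40 genes and from -0.79 to 0.73 for all genes tested. They were also narrower than the whole table for the 79 other mitotic genes (-0.29 to 0.28) and the 50 replication genes (-0.32 to 0.12). The whole table had the larger median SE, 0.14 against 0.066 over the members. The median size of a log2 fold change, without its sign, was 0.097 over the members and 0.20 over all genes tested.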

How the data were processed

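The data are 6 messenger RNA libraries of NIH3T3 cells, grouped and numbered as labelled. Per the labels' protocols, oligo(dT) beads selected the RNA, which was fragmented and reverse transcribed from random hexamers. Per the file headers, the authors deposited a count and an FPKM value per gene. The deposited counts are whole and not normalised. FPKM, deposited beside the counts, is scaled to gene length and library size, and was used only for levels between genes and for ratios of partner genes. Cutadapt 1.9 is named, per the submitters' processing notes. Aligner, counter and build: not given in the sources used here. Among 55141 gene IDs shared with GENCODE M21, 94.2% had the identical position on GRCm38 (39 of 40 members), so that build is named.

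Tests used edgeR 4.0.16 under R 4.3.3 on the deposited counts: TMM scaling, the default expression filter (minimum count 10), a two-sided quasi-likelihood test of group with no covariate, Benjamini-Hochberg over 17159 genes, called at an adjusted p under 0.05. DESeq2 1.42.0 and limma 3.58.1 (voom) were alternatives. The code was tested on simulated data. CPM values use TMM factors, errors are SD over 3 libraries, and SE and 95% intervals come from the fit. No replicate pair was alike within sampling noise (chi-square over its degrees of freedom was 31.2 or more), so n is 3 per group. The labels do not name separate cultures, so p-values reflect only how these libraries vary, and that variation may be technical. A floor of 3 counts equals 0.0382 to 0.0497 CPM and covers counting error only.

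The members and lists were chosen with earlier results of these data known. All 40 members are reported, with called genes of the other lists and Cdkn1a, E2f1 and Mybl2 named by rule.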

Additional observations from a re-analysis of the deposited data

How the results depend on the processing

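Under 17 alternatives, 28 of the 40 members kept the sign of their log2 fold change throughout. The counts of members called lower and higher were 1 and 0 with library size only, 0 and 0 without a filter on low counts, with a term for the libraries with hepatocyte transcripts, without DMSO 1 and IPRN 3 together and with replicate number as a block, and 6 and 2 in DESeq2, against 2 and 0. The remaining scalings and filters and limma-voom left both counts as they were. On genes averaging 50 counts and on protein-coding genes, 5.0% of the members were called, against 8.66% and 9.36% of all genes tested there. With 1 library left out, 0 to 2 members were called lower and the median log2 fold change ran from -0.059 (without IPRN 1) to -0.016.

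No sign that turned belonged to a called member. Ccna2 (0.0019) gave -0.0054 with upper-quartile factors, -0.0080 on protein-coding genes, -0.0022 with the replicate block, -0.0013 with the hepatocyte term and -0.0012 in limma-voom. Foxm1 (-0.00017) gave 0.00020 with DESeq2 size factors, 0.0066 with library size only, 0.0026 with no filter, 0.0015 on genes averaging 50 counts and 0.00021 in DESeq2. Without DMSO 1 and IPRN 3, Cenpe gave 0.0026 and Mad2l1 0.014. With 1 library left out, the ranges that crossed 0 were Aurkb -0.066 to 0.025, Birc5 -0.044 to 0.036, Ccna2 -0.065 to 0.065, Ccnb2 -0.054 to 0.068, Cdk1 -0.088 to 0.032, Cenpe -0.064 to 0.024, Foxm1 -0.11 to 0.16, Mad2l1 -0.054 to 0.0055, Mki67 -0.037 to 0.22, Nusap1 -0.25 to 0.0063, Prc1 -0.098 to 0.029 and Pttg1 -0.045 to 0.15.

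Outside the members, counts called higher and lower among the other mitotic genes (1 and 3) were 2 and 3 with library size only, 1 and 1 with no filter, 3 and 4 on genes averaging 50 counts and on protein-coding genes, 1 and 0 with the hepatocyte term, 4 and 6 in DESeq2, and 0 and 0 with the block or without DMSO 1 and IPRN 3. With 1 library left out they ran from 0 to 2 higher and 0 to 5 lower. On genes averaging 50 counts and on protein-coding genes, 8.86% of this list was called, against 8.66% and 9.36% of all genes tested there. In DESeq2 it was 12.7%, against 13.5%. For replication genes (0 and 4) the counts were 0 and 1 with the hepatocyte term, 1 and 10 in DESeq2 (22.0% called), and 0 and 0 with the block or without both libraries. With 1 left out, 0 to 5 were called lower and the median ran from -0.10 to -0.075. Regulators gave 1 higher and 1 lower in DESeq2, a median of 0.041 with no filter against 0.012, and -0.018 to 0.038 with 1 left out. The cause of these shifts was not tested.

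Replicate numbers did not pair the libraries: deviations of same-numbered libraries correlated at -0.041, 0.0045 and -0.049, and the block gave adjusted p of 0.148 for Ccnb1 and 0.155 for Top2a and left 103 of 17159 genes called, against 938. The term for hepatocyte transcripts left 429, no filter 621 of 27168, and leaving out any library but IPRN 1 133 to 262. Scaling moved the median of all genes by at most 0.0073. At total counts of at least 60320282 each member had 1199 counts or more in every library. Whether depth or the spread between replicates limits these values more was not tested for each member.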
